A study of Mus musculus with 38 samples.

Results

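By 12 weeks of SOX9 expression (W12), 33985 H3K27ac peaks were listed in epidermal stem cells (EpdSCs) of mouse skin, and 5838 of them had no counterpart before. These 5838 peaks were chosen by their called positions alone, on sharing no base with any of the 4 H3K27ac lists before W12 (D0, W1, W2, W6), nor with an H3K4me1 domain at any of the 5 time points. They are called W12-first peaks outside H3K4me1 here. They made up 17.2% of the W12 list (95% interval 16.8 to 17.6%), and the rest were 8018 peaks that were first called at W12 inside an H3K4me1 domain and 20129 peaks that an earlier list also held. The rule used the calls themselves, so the fold enrichment, score, width and overlaps of these peaks with the skin lists are a description and not a finding.

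The cells came from back skin of male K14rtTA; TRE-myc-Sox9 mice, in which the keratin 14 promoter drives a doxycycline (DOX) dependent activator in the epithelium and thereby MYC-tagged SOX9, the transcription factor that normally marks hair follicle stem cells. DOX was started at P21, and cells were sorted as negative for CD31, CD45, CD117 and CD140a, high for CD49f, negative for CD34 and high for Ly6A. D0 cells had no DOX, and W1, W2, W6 and W12 cells had it for 1, 2, 6 and 12 weeks. The W12 cells came from neonatal skin grafted onto immunocompromised female hosts, so that graft and induction time cannot be told apart at W12. MINT-ChIP, which barcodes the chromatin of several samples before the antibodies are added, was run on chromatin cut strongly and weakly with micrococcal nuclease. The W12 H3K27ac libraries also carried the barcoded chromatin of W2 replicate 1. Each list was called by the authors on merged replicates, so that no spread between replicates exists for any value below. Intervals are 95% and cover counting error over peaks or windows only, neighbouring peaks are not independent, and no p-value was computed. The *Krt14* promoter is active in basal epithelium. Start sites of 13 of 18 epidermal marker genes carried an H3K27ac peak within 2500 bp at W12, *Krt5* and *Krt14* among them. The count was 14 at D0, 14 at W1, 15 at W2 and 15 at W6. For hair follicle stem cell genes it was 7 of 16 at W12, and 8, 10, 13 and 9 at D0, W1, W2 and W6.

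H3K27ac is an acetyl mark that p300 and CBP place on nucleosomes of active enhancers and promoters. H3K4me1 is a methyl mark that KMT2C and KMT2D place over enhancers, often before they become active, and it usually extends on both sides of an acetylated enhancer. Acetylated enhancers therefore mostly lie inside H3K4me1.

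The reference sequence of 6 windows shows the range of DNA found at these peaks. They are the 300 bp around the summit of the 2 peaks with the highest score, of the widest peak, and of the 3 peaks in the second tightest group of members. Positions are those of GRCm38 (mm10), the sequence is the plus strand of the RefSeq assembly, and capitals mark bases that the assembly leaves unmasked while lower case marks soft-masked bases, that is repeats and low-complexity DNA.
chr11:110567589-110567888 (highest score, intergenic): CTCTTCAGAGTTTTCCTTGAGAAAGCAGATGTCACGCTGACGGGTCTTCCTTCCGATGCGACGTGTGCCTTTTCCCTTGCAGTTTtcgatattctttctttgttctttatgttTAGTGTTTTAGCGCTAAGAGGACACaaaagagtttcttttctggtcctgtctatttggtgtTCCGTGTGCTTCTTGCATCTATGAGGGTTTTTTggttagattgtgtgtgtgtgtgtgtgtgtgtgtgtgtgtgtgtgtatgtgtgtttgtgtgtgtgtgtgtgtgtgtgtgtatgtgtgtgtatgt
chr17:6209359-6209658 (second highest score, intron of Tulp4): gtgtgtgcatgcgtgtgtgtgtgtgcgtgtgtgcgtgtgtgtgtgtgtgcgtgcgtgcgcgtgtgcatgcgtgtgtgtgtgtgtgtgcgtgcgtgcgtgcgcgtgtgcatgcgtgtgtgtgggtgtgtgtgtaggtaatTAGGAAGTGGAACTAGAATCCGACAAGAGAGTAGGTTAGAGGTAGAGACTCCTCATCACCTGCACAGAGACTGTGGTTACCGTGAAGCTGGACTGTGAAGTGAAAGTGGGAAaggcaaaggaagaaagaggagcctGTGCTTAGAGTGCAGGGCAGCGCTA
chr10:11794202-11794501 (widest, intergenic): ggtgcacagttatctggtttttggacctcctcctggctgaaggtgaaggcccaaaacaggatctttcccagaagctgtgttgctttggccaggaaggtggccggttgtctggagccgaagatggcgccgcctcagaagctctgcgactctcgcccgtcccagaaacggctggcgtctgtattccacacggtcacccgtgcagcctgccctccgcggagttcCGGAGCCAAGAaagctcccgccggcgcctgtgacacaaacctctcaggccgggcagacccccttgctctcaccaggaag
chr15:25253130-25253429 (second tightest group, intergenic): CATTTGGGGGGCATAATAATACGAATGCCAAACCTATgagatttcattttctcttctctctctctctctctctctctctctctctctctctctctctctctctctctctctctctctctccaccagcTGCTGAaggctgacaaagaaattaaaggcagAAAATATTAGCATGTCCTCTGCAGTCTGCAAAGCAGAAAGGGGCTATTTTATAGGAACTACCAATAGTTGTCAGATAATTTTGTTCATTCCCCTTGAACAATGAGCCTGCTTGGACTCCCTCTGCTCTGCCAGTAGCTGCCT
chr15:25254925-25255224 (second tightest group, intergenic): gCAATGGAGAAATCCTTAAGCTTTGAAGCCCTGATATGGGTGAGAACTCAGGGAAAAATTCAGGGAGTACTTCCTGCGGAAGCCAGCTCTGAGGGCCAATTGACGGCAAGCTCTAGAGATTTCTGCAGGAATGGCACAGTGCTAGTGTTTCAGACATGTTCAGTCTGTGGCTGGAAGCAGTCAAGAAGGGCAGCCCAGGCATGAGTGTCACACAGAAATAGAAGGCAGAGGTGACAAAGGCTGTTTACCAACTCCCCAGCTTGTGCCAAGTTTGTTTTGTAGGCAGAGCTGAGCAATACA
chr15:25259341-25259640 (second tightest group, intergenic): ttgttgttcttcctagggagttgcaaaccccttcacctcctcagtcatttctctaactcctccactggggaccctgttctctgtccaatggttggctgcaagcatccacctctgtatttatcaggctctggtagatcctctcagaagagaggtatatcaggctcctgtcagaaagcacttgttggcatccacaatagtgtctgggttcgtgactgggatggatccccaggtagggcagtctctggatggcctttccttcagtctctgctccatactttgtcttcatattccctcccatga
The 2 strongest peaks ran into long stretches of GT dinucleotides, the widest was masked over 96.3% of its window, and the 3 neighbours on chromosome 15 differed from almost unmasked (0.333%) to masked throughout (100%). Masking differed between strong and weak members, as described below.

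The number of such peaks was far higher at W12 than in any other list. Applying the same demand to each list, that a peak be in no other H3K27ac list and no H3K4me1 domain, returned 315 of 30268 peaks at D0 (1.04%), 549 of 32544 at W1 (1.69%), 174 of 29081 at W2 (0.598%), 154 of 30516 at W6 (0.505%) and 5838 of 33985 at W12 (17.2%). The W12 share exceeded the others by 15.5 points (15.1 to 15.9) against W1 and by 16.7 points (16.3 to 17.1) against W6. Counting only peaks that no earlier list held, 578 were first called outside H3K4me1 at W1, 232 at W2 and 178 at W6. The W12 list as a whole also differed from the others. Its median fold was 4.96 against 5.39 to 6.56, and its median width was 476 bp against 635 to 821 bp. Of its peaks, 40.8% were in no other H3K27ac list, against 15.3 to 20.8%. Peaks of the W12 list that no other H3K27ac list held lay outside H3K4me1 in 42.1% of cases, and those of the other lists in between 3.3% (W6) and 8.12% (W1). The lists give no read counts, so that the depth of the libraries is unknown. The spacing of the fold values gives a genome-wide background pileup if the usual MACS2 formula is assumed. It was 0.412 fragments at W12 and 0.501, 0.299, 0.425 and 0.677 at D0, W1, W2 and W6. The share of peaks that lay on this spacing was 82.7% at W12 and 92.0 to 96.0% in the other lists. The control and the scaling are not known, and the part of depth in the counts was not tested. The W12 list is the only one labelled with a q cut-off, and the lowest −log10 q was 1.37 at W12 and between 1.3 and 1.39 in the 4 other lists.

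**Figure D1:**
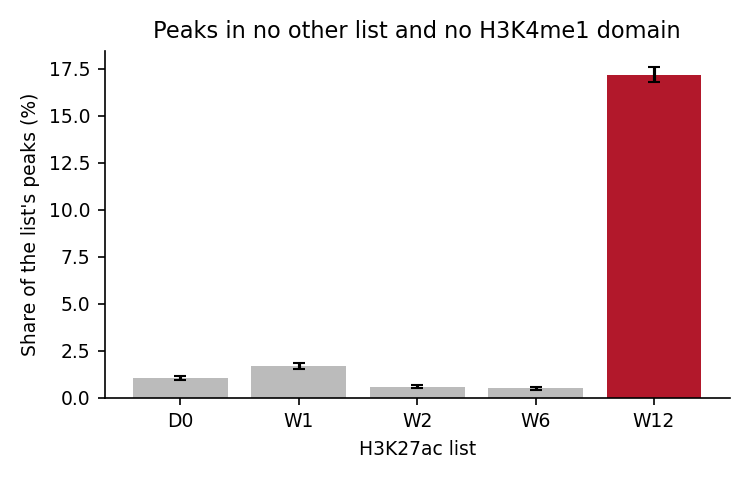
Share of each H3K27ac list (y axis, %) that lay in no other H3K27ac list and in no H3K4me1 domain, by time point (x axis), with bars for the share and whiskers for the exact 95% binomial interval. The W12 bar stands at 17.2%, and the 4 other lists lie between 0.505% and 1.69%.

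Most of the 5838 peaks were weak. Their fold enrichment, the ratio of fragments at the summit to the local background, had a median of 3.92 and quartiles of 3.54 and 4.81, with 2.98 at the lowest and 28.3 at the highest. The peaks first called at W12 inside H3K4me1 had a median fold of 4.25, and those called earlier had 6.38. The median width was 372 bp for the peaks outside H3K4me1, with a range from 302 to 2794 bp, against 390 bp inside and 637 bp for those called earlier. A single value of fold, 3.54, was shared by 1299 peaks, 4.25 by 631 and 4.96 by 507. These values are 0.708 apart, the step that 1 more fragment gives under the usual MACS2 formula, in which fold is the pileup plus 1 over the background plus 1, and on that reading a fold of 3.54 stands for 4 stacked fragments. Of the W12-first peaks outside H3K4me1, 50.5% lay on such steps, as did 73.4% of those inside and 95.8% of those called earlier. In the formula a local background above the genome-wide level moves a fold off the steps.

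The edge of the list shows how close many members were to the calling limit. A −log10 q of 2 or more was reached by 3122 of them (53.5%), whereas 80.9% of the whole W12 list reached it. The lowest −log10 q was 1.37, and 21 members had it, with a median fold of 3.09. In position, 762 members (13.1%) began or ended under 1000 bp from an earlier peak or an H3K4me1 domain, at a median of 443 bp, and their median fold of 3.92 equalled that of the 5076 members farther away. Only 34 W12 peaks fell outside the set with under 10% of their length covered, and these had a median fold of 4.41. The median member lay 7523 bp from the nearest domain or earlier peak, against 20150 bp for genome windows outside both marks.

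To describe the DNA of these peaks, windows of 300 bp every 3000 bp along the 21 chromosomes served as the reference, 882464 in all, of which 81.1% lay outside every skin H3K4me1 domain and H3K27ac peak. The W12-first peaks outside H3K4me1 were richer in G and C than such windows. Their median GC content was 44.7% (quartiles 40.3 and 48.3%), the windows outside had 40.7% (36.0 and 45.7%), the W12-first peaks inside H3K4me1 had 46.7%, and the peaks called earlier had 50.7%. CpG dinucleotides, the sites of DNA methylation in mammals, were few in all of the new peaks, at a median of 2 per window outside H3K4me1 and 3 inside, against 6 in peaks called earlier.

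Pooled over the whole genome, the share of masked windows in these peaks was close to that of windows outside both marks. In 32.3% of members at least 50% of the window was soft-masked, against 33.1% of windows outside, a difference of −0.808 points (−2.0 to 0.408), although members were higher on 14 of 20 chromosomes. The W12-first peaks inside H3K4me1 had 11.9%. Members exceeded them by 20.4 points (19 to 21.8) and were higher on 20 of 20 chromosomes compared. Masked throughout were 12.5% of members, 0.848% of W12-first peaks inside H3K4me1 and 12.8% of windows outside. A second measure came from the sequence alone: the share of 40-base words of a window that occur elsewhere in the genome on either strand, 40 bases being the read length the labels give. In 14.7% of members at least 50% of the words were found elsewhere, in 1.5% of those inside H3K4me1, and in 17.4% of windows outside. The difference from windows outside was −2.67 points (−3.64 to −1.66) over the genome, yet members were again higher on 14 of 20 chromosomes. Counts over 20 chromosomes leave out Y throughout, which held 20 members and 88.0 Mb of the sequence outside. The pooled windows weigh each chromosome by its length outside both marks, and the pooled members do not. These 2 shares without X and Y were not computed.

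Behind this average the share of masked DNA rose with the strength of the peak. It was 24.3% (22.7 to 26.0) in the 2711 members with a fold of up to 3.6, 32.6% in the 2325 with 3.6 to 5, 52.3% in the 528 with 5 to 7, 69.1% in the 220 with 7 to 10 and 81.5% (68.6 to 90.7) in the 54 above 10. The weakest class thus lay under the 33.1% of the windows outside and the 3 strongest classes above it. W12-first peaks inside H3K4me1 went from 9.78% in the weakest class to 50% (32.9 to 67.1) in the 36 strongest. Peaks called earlier went the other way, from 8.37% to 5.17%. Words found elsewhere followed the same order in the members, at a mean of 10.3% of the window in the weakest class and 45.0% in the strongest. How reads that align to several places were treated is not given in the sources used here, and its part in these values was not tested.

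**Figure D2:**
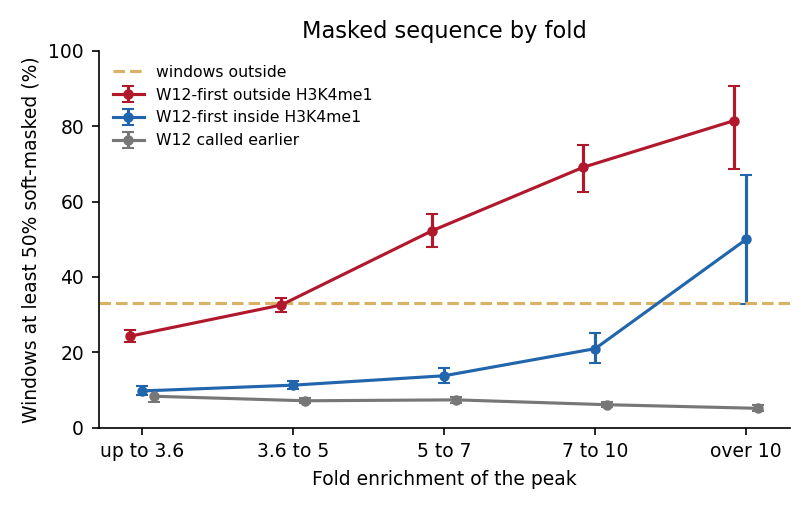
Share of peaks whose 300 bp window is at least 50% soft-masked (y axis, %) by class of fold enrichment (x axis), for the 3 kinds of W12 peak, with exact 95% binomial intervals, and for genome windows outside both marks as a dashed line. The peaks outside H3K4me1 go from 24.3% in the weakest class to 81.5% in the strongest, those inside from 9.78% to 50%, and those called earlier fall from 8.37% to 5.17%.

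Some of the strong peaks were copies of each other. Of the 274 members with a fold over 7, 83 shared at least 20 words of 40 bases with another of the 274, and these 83 fell into 21 families. The largest family held 16 peaks on 10 chromosomes, and the next held 9 on 8. These 83 peaks are not independent places.

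The 10 members with the highest score were scattered over 8 chromosomes, with 6 in introns and 3 between genes. The strongest peak (fold 28.3, 340 bp) was intergenic on chromosome 11 at 110567587 to 110567926. The next lay in introns of *Tulp4* (fold 23.7), *Cacna1b*, a subunit of a neuronal calcium channel (22.7), and *Rasgef1b* (22.3), and a peak of 1997 bp at an exon of *Tmem26*, a transmembrane protein gene, had 21.6. *Grm8*, a glutamate receptor gene (18.1), *Parn*, a poly(A) ribonuclease gene (17.0), and the predicted gene Gm19583 (16.2) held the next in their introns, and 2 intergenic peaks on chromosomes 7 and 10 closed the list at 14.9 each. Every one of the 10 had at least some 40-base words found elsewhere, and 7 were masked over at least 50% of the window. Of the 50 strongest, 1 had no such word. The peak in *Cacna1b* (chromosome 2, 24634085 to 24634884, 800 bp) was the only one of the 10 inside an H3K4me1 domain of cultured cells.

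In the 5 widest members the 300 bp around the summit were masked almost throughout, and the rest of these peaks was not measured. The intergenic peak on chromosome 10 at 11792862 to 11795655 covered 2794 bp. Peaks of 2403 bp and 2225 bp lay between genes on chromosome X, and 1 of 2210 bp lay between genes on chromosome 4. In the 300 bp window of the latter, 100% of the 40-base words were found elsewhere, at a median of 3118 copies. A peak of 2045 bp in an intron of *Ccdc73* had a fold of only 4.25.

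Cultured EpdSCs gave a measurement of H3K4me1 that the rule had not used. There H3K4me1 was profiled without DOX and with wild-type SOX9, SOX9 without its HMG DNA-binding domain, or SOX9 without its transactivation domain. Of the W12-first peaks outside H3K4me1 in skin, 9.80% (9.05 to 10.6) lay in a domain of at least 1 of the 4 culture lists, against 3.64% of windows outside. The difference was 6.16 points (5.42 to 6.95), a ratio of 2.69, and members were higher on 20 of 20 chromosomes. The W12-first peaks inside skin H3K4me1 were far above both, at 58.5%, and the peaks called earlier reached 64.3%. By list, 4.30% of members lay in a domain without DOX, 4.92% with wild-type SOX9, 5.14% without the HMG domain and 5.98% without the transactivation domain. The windows outside ranged over 1.32%, 1.70%, 1.59% and 2.03% in the same lists, so that the ratio was between 2.89 and 3.27 in each of the 4, the lists without DOX and without the HMG domain included. A domain in all 4 lists covered 1.82% of members and 0.457% of windows.

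This excess did not follow the strength of the peak. The share in a culture domain was 9.18% in the weakest class of fold and 9.26% (3.08 to 20.3) in the strongest, and between 9.09% and 10.7% in the classes between. In the W12-first peaks inside H3K4me1 it went from 51.2% to 69.4%. The culture share was higher at higher GC, in members up to 55% GC and in windows throughout. Within a class of GC the members stayed higher in every class from 35% upwards, for example at 9.25% (7.91 to 10.7) against 3.96% at 40 to 45% GC, and at 12% (10.6 to 13.6) against 5.59% at 45 to 50%. Under 35% GC the members had 1.11% (0.229 to 3.2) and the windows 1.18%. In the 3585 members that held no 40-base word found elsewhere the share was 12.2% (11.2 to 13.3), against 4.73% of such windows.

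**Figure D3:**
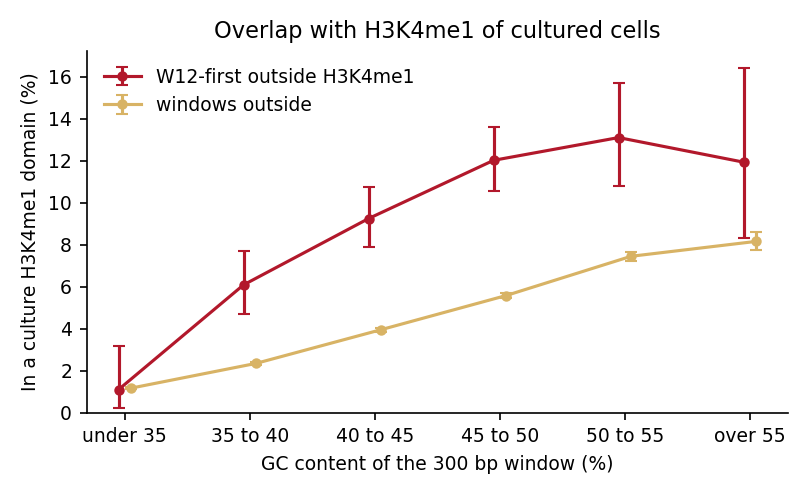
Share lying in an H3K4me1 domain of cultured EpdSCs (y axis, %) by GC content of the 300 bp window (x axis), for W12-first peaks outside skin H3K4me1 and for genome windows outside both marks, with exact 95% binomial intervals. The peaks lie above the windows in every class from 35% GC upwards, and at the same height under 35%.

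Few of these peaks lay at promoters. More than 2500 bp from every annotated start site lay 91.7% of members (91.0 to 92.4), the same as the 91.7% of windows outside (difference 0.0567 points, −0.680 to 0.739). W12-first peaks inside H3K4me1 had 83.1%, and peaks called earlier 51.8%. Only 34 members (0.582%) covered a start site, and the same share of windows outside was not computed. The strongest of these were at *Intu*, a planar cell polarity gene needed for cilia (fold 7.79), and *Sp100*, a nuclear body protein gene (7.08). Start sites of protein-coding genes lay within 2500 bp of 2.98% of members, 2.75% of windows outside and 10.3% of W12-first peaks inside H3K4me1. These start-site genes were chosen after their values were seen.

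Genes held a larger share of the members than of the windows outside both marks. Gene bodies overlapped 52.0% (50.7 to 53.2) of members and 42.3% of windows outside, 9.64 points apart (8.36 to 10.9), with members higher on 20 of 20 chromosomes. Protein-coding genes gave 45.4% against 35.3%, and exons gave 8.0% against 5.89%. W12-first peaks inside H3K4me1 were more often in genes, at 66.7%, and so were the peaks called earlier, at 73.3%. Among members without 40-base words found elsewhere, 58.6% lay in genes, against 48.7% of such windows. Within a class of GC the gap was smaller, at 51.4% against 43.4% for 40 to 45% GC and 54.5% against 46.6% for 45 to 50%, and at over 55% GC members had 60.8% (54.7 to 66.7) and windows 61.3%.

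The genes that held most members were long ones. In total 2084 protein-coding genes held the summit of at least 1 member, and their median length was 97.6 kb against 17.4 kb for all 21938. A long gene holds more positions of any kind, and the length of genes that hold windows outside was not computed. *Gm20388*, which spans 4435 kb of chromosome 8 in the annotation, held 8. Then came *Dab1*, an adaptor of reelin signalling in neurons, *Macrod2*, and *Fgfr2*, the receptor for keratinocyte growth factors, with 7 each. In the annotation *Fgfr2* spans 2961 kb of chromosome 7, and its 7 members were counted over that whole span. *Cacna1d*, *Plcb1*, *Ctnnd2*, *Ccser1*, *Fhit* and *Lsamp* held 6 each in bodies of 452 to 2197 kb. Per Mb of gene body, *Gm20388* had 1.80 members, *Dab1* 6.22, *Macrod2* 3.50 and *Fgfr2* 2.36. The genes with 6 members ranged from 2.73 (*Lsamp*) to 13.3 (*Cacna1d*) per Mb. Per length, among the 37 genes with at least 4 members, *Hmox2*, a haem oxygenase gene, led with 4 in 40.4 kb, or 99.1 per Mb. *Ap3b1* had 24.1 per Mb, the antisense gene Gm28376 20.7, *Prkdc*, the catalytic subunit of the DNA-dependent protein kinase, 19.6, and *Hhat*, which palmitoylates hedgehog ligands, 18.2. *Rgl1* (16.0), *Phf21a* (14.7), *Tcf4* (14.5), *Cacna1d* (13.3) and *Ust* (12.7) followed. The density over all autosomes was 2.35 per Mb of whole length. Counted per Mb of gene body outside both marks, the order of these genes changed, with *Hmox2* at 190.5, *Ap3b1* at 29.2, *Tcf4* at 26.5, *Ust* at 24.7 and Gm28376 at 23.8.

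The members were somewhat closer to each other than windows outside were to them, and fewer of them had a near neighbour of their own kind than other W12 peaks did. Another member was within 10 kb of 352 of them, or 6.03% (5.43 to 6.67), against 4.71% of windows outside, weighted by the members' chromosomes. Within 100 kb it was 41.0% (39.7 to 42.2), against 35.1% of windows, and within 1 kb 0.788% (0.577 to 1.05) against 0.537%. W12-first peaks inside H3K4me1 had a neighbour of their own kind within 10 kb in 21.6% and peaks called earlier in 57.7%. Among members, 164 pairs and 8 groups of 3 had gaps under 10 kb, and no group was larger, whereas the largest group of peaks called earlier held 29. The tightest group, of 3 peaks in 4520 bp, lay in *Ctnna1*, the alpha-catenin gene of adherens junctions, on chromosome 18. The next, on chromosome 15, held 3 peaks of fold 3.54 in 6554 bp between genes, and their sequences are given above. Groups in *Hmox2* and *Cdip1* (7556 bp), *Dab1* (9955 bp) and *Letm1* (13204 bp) followed.

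The density varied among the autosomes, and the X chromosome held fewer. Per Mb outside both marks the 19 autosomes had between 2.33 members (chromosome 14) and 3.59 (chromosome 11), with a median of 2.95. By whole chromosome length, chromosome 11 also led and chromosome 14 was also last for the W12-first peaks inside H3K4me1 and for those called earlier. Per Mb inside the marks, however, the W12-first peaks inside H3K4me1 were densest on chromosome 12 (17.9) and least dense on chromosome 13 (14.4), with 14.8 on chromosome 11 and 17 on chromosome 14. Chromosome X held 197 members, 1.28 per Mb (1.11 to 1.47, exact Poisson interval), or 0.433 of the autosomal density (0.375 to 0.498). The W12-first peaks inside H3K4me1 reached 0.540 (0.430 to 0.670) of their autosomal density there. The mice were male, so that the X chromosome is present in 1 copy in their own cells. The hosts of the W12 grafts were female, and the part of host cells in the W12 list was not tested. A member with a fold over 7 lay within 2500 bp of a start site of *Xist* on the X chromosome. Its window was unmasked and held no 40-base word found elsewhere. This member was picked after its values were seen. Chromosome Y held 20 members, 0.227 per Mb. Over 240 autosomal bins of 10 Mb the density had a median of 2.98 per Mb, with a lowest decile of 1.78 and a highest of 4.23. The variance of the counts per bin was 1.65 times their mean, a ratio that is 1 for even and independent placement in bins of equal length. The bins had at least 5 Mb outside both marks and were unequal in it, so that 1 is not an exact reference here.

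**Figure D4:**
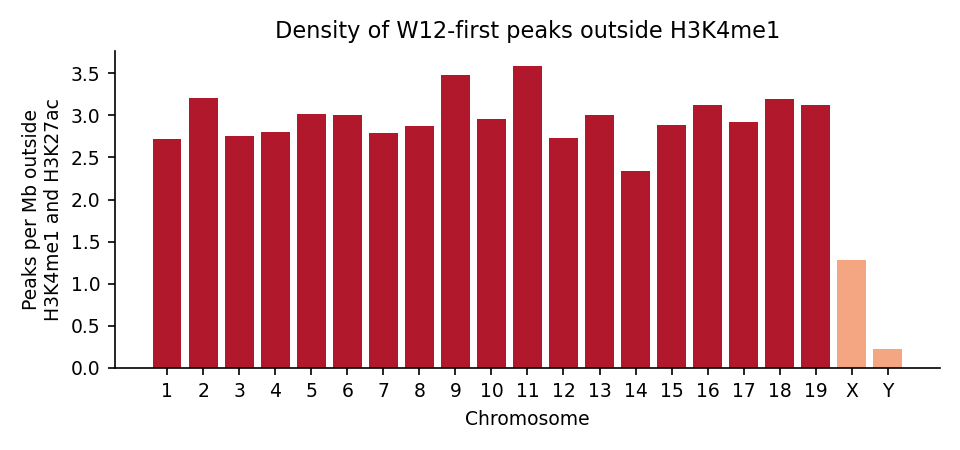
W12-first peaks outside H3K4me1 per Mb of sequence outside skin H3K4me1 and H3K27ac (y axis), by chromosome (x axis), with autosomes in dark red and sex chromosomes in light red. The autosomes lie between 2.33 and 3.59 per Mb, X at 1.28 and Y at 0.227.

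Near genes of the skin lineages these peaks were few, and so were windows outside both marks. None of the 5838 lay within 10 kb of the 18 epidermal markers, which allows a share of up to 0.0514% if a limit of 3 counts is taken, whereas windows outside had 0.0141% and 15 of the W12-first peaks inside H3K4me1 lay there. Of 16 hair follicle stem cell genes, 2 had a member within 10 kb, *Nfia* with a fold of 3.27 and *Lgr5*, the receptor that marks cycling hair follicle stem cells, with 10.6. The *Lgr5* peak lay in an intron at 115572572 to 115573616 on chromosome 10 and was masked over 72.0% of its window. Of 14 hedgehog and basal cell carcinoma genes, only *Smo*, the transducer of hedgehog signals, had one. Its fold was 12.5, and its window was masked over 98.7%. The 2 members near hair follicle genes were 0.0343% of all (0.00415 to 0.124) against 0.027% of windows outside, and the member near hedgehog genes was 0.0171% (0.000434 to 0.0954) against 0.0249%. Around the same genes 25 and 13 of the W12-first peaks inside H3K4me1 were found.

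Most listed genes of other lineages had no member nearby. Of 8 endothelial genes 4 had one within 10 kb, *Cdh5*, *Emcn*, *Flt1* and *Erg*, with folds of 4.25, 3.54, 3.57 and 4.25, and these 4 members were 0.0685% of all (0.0187 to 0.175) against 0.0344% of windows outside. All 3 members within 2500 bp of a start site of any gene on the 12 lists were of such lineages. They lay at *Cdh5*, the cadherin of endothelial junctions, *Emcn*, an endothelial sialomucin, and *Myod1*, the myogenic master regulator, with folds of 4.25, 3.54 and 4.05 and none of their 40-base words found elsewhere. Of 8 muscle genes 3 had members nearby, *Ckm*, *Myod1* and *Myh11*, and these 4 members were 0.0685% of all (0.0187 to 0.175) against 0.0108% of windows outside. Of 10 fibroblast genes *Fbn1*, *Col1a2* and *Pdgfra* had one, and the peak by *Pdgfra*, a receptor of platelet-derived growth factor, was strong (fold 16.2) and masked over 75.7% of its window. The fibroblast share was 0.0514% (0.0106 to 0.15) against 0.0231% of windows. A member lay near 3 of 10 genes of mesenchymal transition (*Twist2*, *Sparc* and *Zeb1*), 3 of 8 Schwann cell and neuron genes, 2 of 8 melanocyte genes (*Kit* and *Mitf*), 1 of 12 leukocyte genes (*Trac*) and 0 of 6 adipocyte genes. Their shares of members were 0.0514%, 0.0514%, 0.0343%, 0.0171% and 0%, and those of windows outside were 0.0359%, 0.0562%, 0.021%, 0.0271% and 0.0117% in the same order. The interval of the members left out the windows' share for the muscle list alone among the lists of other lineages. That list rested on 4 members, 2 of them at *Myh11*. No allowance was made for the number of lists, and they were chosen with results known, so this is a description and not a test. Start sites of 4 of the 8 endothelial genes carried an H3K27ac peak of any kind at W12, which were *Pecam1*, *Cdh5*, *Emcn* and *Flt1*, against 1 at D0, 2 at W1, 1 at W2 and 1 at W6. Those of leukocyte genes did so for 1 of 12 at W12 and for 0 to 2 earlier, and those of fibroblast genes for 1 of 10 and for 0 to 2. Mesenchymal transition genes had 4 of 10 at W12 and 2 at each earlier time, and muscle genes 3 of 8 and 2. Melanocyte genes had 2 of 8 and 1 to 2, Schwann cell and neuron genes 1 of 8 and 1 to 2, and adipocyte genes 1 of 6 and 0 to 1. The share over all genes was not computed. The sort had removed CD31 positive cells. The part of other cells in the members was not tested, and in bulk chromatin a few cells with a strong mark cannot be told apart from many with a weak one.

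Among 10 genes of SWI/SNF and of histone modifying enzymes, 5 had a member within 10 kb, with 6 members in all, or 0.103% (0.0377 to 0.224) against 0.0352% of windows. They were *Kmt2c*, *Smarca4*, *Ep300*, *Crebbp* and *Arid1b*. *Ep300* encodes p300 itself. Its peak (fold 7.79) lay 5840 bp outside the gene body, and the window of that peak was masked throughout. Over the 12 lists 27 of 128 genes had a member within 10 kb. The share of all annotated genes with a member that near was not computed. The counts of genes in each list therefore have no base to be read against. Of the gene families taken by symbol, olfactory receptors had 0.548% (0.375 to 0.773) of members against 1.04% of windows, protocadherins 0.0514% (0.0106 to 0.150) against 0.205%, solute carriers 1.18% (0.921 to 1.49) against 0.889%, and zinc finger genes named Zfp 0.805% (0.592 to 1.07) against 0.710%. All protein-coding genes with 10 kb on both sides covered 55.1% of members and 43.6% of windows. The lists were chosen with results of these data known, and no test was made of them.

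Over all members, the words of AP1, TEAD and GATA factors were less frequent in 300 bp than in windows outside. For SOX and RUNX the interval of the difference spanned 0 in 300 bp. Each motif was searched on both strands in 300 bp around the summit, and the share of all 882464 windows with a match is given last. The SOX word AACAATG was in 5.62% (5.04 to 6.24) of members, 6.21% of windows outside, 4.80% of W12-first peaks inside H3K4me1 and 5.97% of all windows. In windows of 500 bp members differed from windows outside by −1.21 points (−1.92 to −0.444) for SOX, an interval that left out 0. The AP1 word TGANTCA was in 7.47%, 8.55%, 11% and 8.87%, so that members differed by −3.52 points (−4.47 to −2.55) from the W12-first peaks inside H3K4me1 and by −1.08 points (−1.73 to −0.376) from windows outside. In windows of 500 bp the latter was −0.773 points (−1.62 to 0.121), so that the interval spanned 0, and at 50% GC and over members had 6.5% against 6.18%. RUNX (TGTGGTT) was in 6.71%, 6.83%, 7.33% and 6.92%, and TEAD (GGAATG) in 14.8%, 15.9%, 16.2% and 15.9%. The GATA word AGATAA was in 16.2%, 20%, 15.3% and 19.3%. Within classes of GC the GATA word was in 23.4% of members and 25.9% of windows under 40% GC, in 18.7% and 18.8% at 40 to 45%, in 12.8% and 13.1% at 45 to 50%, and in 9.08% and 8.65% above. TEAD was lower in members at 40 to 45% GC, with 15.6% (13.9 to 17.5) against 18.3%, and at 45 to 50%, with 15.4% (13.7 to 17.1) against 17.9%.

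Among the other words, the p53 family word, the E-box, the ETS word and CA runs departed from windows outside. Members were richer in G and C than these windows. The p53 family, E-box and ETS words were not split by GC, and the part of GC in their differences was not tested. For the CTCF word, the NFI word and A runs the interval of the difference held both signs. These intervals were −0.349 to 0.376, −0.671 to 1.13 and −0.0138 to 0.722 points. The p53 family word ACATGT was in 7.93% of members, 10.3% of windows outside, 8.83% of W12-first peaks inside H3K4me1 and 10.3% of all windows. The E-box CACGTG was in 3.43%, 2.56%, 4.43% and 2.87%, the CTCF word AGGGGGC in 2.0%, 2.02%, 3.92% and 2.34%, the ETS word CCGGAAG in 0.925%, 0.696%, 1.31% and 0.840%, and the NFI word TTGGCA in 14.3%, 14.1%, 16.2% and 14.4%. Runs of at least 12 CA repeats, also searched on both strands, were in 3.89% of members, 2.43% of windows outside, 3.55% of W12-first peaks inside H3K4me1 and 2.52% of all windows. The excess over windows outside was 1.46 points (0.993 to 1.99), and runs of at least 15 A gave 2.07% against 1.75%. Under 40% GC, CA runs were in 2.57% (1.79 to 3.58) of members and 2.04% of windows outside. At 45 to 50% GC they were in 5.23% (4.25 to 6.37) and 2.92%. A match is only a run of letters, and says nothing on binding.

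**Figure D5:**
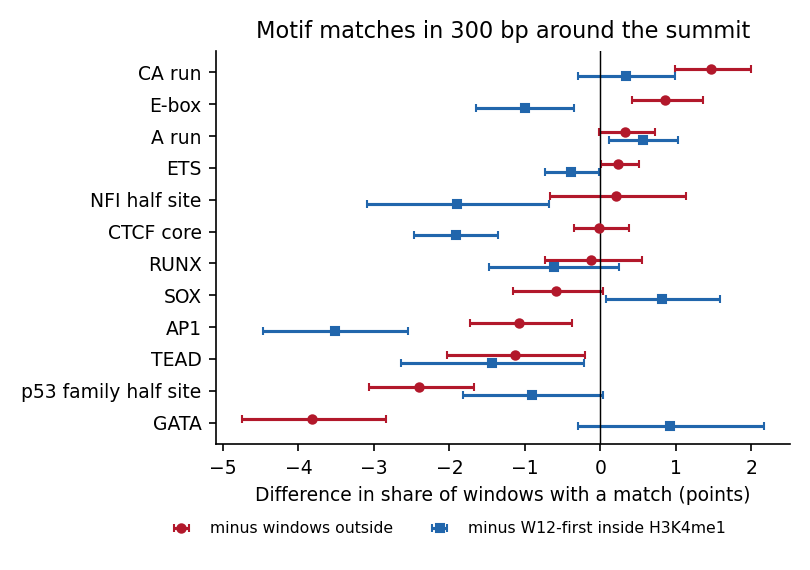
Difference in the share of 300 bp windows with a match (x axis, percentage points) for each motif (y axis), W12-first peaks outside H3K4me1 minus genome windows outside both marks (circles) and minus W12-first peaks inside H3K4me1 (squares), with Newcombe 95% intervals. AP1 lies at −3.52 points against the peaks inside H3K4me1, and CA runs lie at 1.46 points against the windows.

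Peaks chosen in the same way from the other lists were fewer but could be set beside those of W12. At least 50% of the window was masked in 32.7% of the 315 peaks at D0, 20.4% of the 549 at W1, 39.7% of the 174 at W2 and 34.4% of the 154 at W6, against 32.3% at W12. The W12 share exceeded that of W1 by 11.9 points (8.18 to 15.3) and differed from that of W2 by −7.32 points (−14.8 to −0.241). Culture domains held 16.2%, 10.7%, 10.3% and 9.09% of these peaks, against 9.80% at W12, and the W12 share differed from that of D0 by −6.39 points (−10.9 to −2.65). The median GC content was 47.7%, 44.3%, 43.3% and 47.2%, against 44.7%. Gene bodies held 63.5%, 55.7%, 51.7% and 61.0%, against 52.0%, and the intervals of the difference from W12 spanned 0 at W1 and W2.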

How the data were processed

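MINT-ChIP peak lists of H3K27ac and H3K4me1 were used, 1 pooled list for each mark and time point, with 4 H3K4me1 lists of cultured cells. Per the study's methods the authors split reads by barcode, trimmed with Skewer, aligned to GRCm38 with Bowtie2, removed duplicates with Picard, merged replicates with SAMtools and called H3K27ac peaks with MACS2 and H3K4me1 domains with epic2. The versions 2.2.9 of Bowtie2, 1.9 of SAMtools and 2.1.1 of MACS2 are those of the submitters' processing notes, and the only caller setting found is a q cut-off in the label of the W12 H3K27ac list, which the other lists lack. In the deposited H3K27ac lists each peak has a score in whole numbers, the fold of its summit over the local background as a linear ratio, and −log10 values, of which those of q were used. The deposited H3K4me1 lists of skin give a p-value per domain. The culture lists have the layout of MACS2 broad peaks, and how they were called is unclear. Depth per sample is unknown from such lists.

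Intervals on 21 chromosomes were compared, with 1 bp counting as overlap. Windows were 300 bp around the summit for peaks and 300 bp every 3000 bp for the genome, a full tiling without drawing. Words of 40 bases were counted in every peak window and in 1 of 20 genome windows. Masking was read from the RefSeq assembly, whose masking tool and repeat families are not given. Genes and start sites came from the basic set of GENCODE M21, in which 55413 genes have 77161 start positions. Shares carry exact Clopper-Pearson intervals and differences Newcombe intervals. Analyses ran in Python 3.11.15 with numpy 2.4.6, pandas 2.3.3 and scipy 1.17.1, and the functions were tested on simulated data.

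Members and gene lists were chosen with earlier results of these data known. The text names, by rule, the 10 highest scores, the 5 widest peaks, the 5 densest groups with gaps under 10 kb, the 10 genes with most members and the 10 with most per Mb among those with at least 4, listed genes with a member near the start site, members at the lowest q, and top members in a culture domain. Alternatives were another overlap, distance, strictness, joining, window, background, flank or chromosome set, and alternatives on repeated words, whole peaks, strong members, strict counts at other times and genes without X and Y were added after seeing the data. Total H3 and barcode tables were not used.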

Additional observations from a re-analysis of the deposited data

How the results depend on the processing

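Of 60 values under another setting, 38 stayed within their interval or within 1.5 times the count, and none changed direction where the interval left out 0. A −log10 q of at least 2 lowered the members from 5838 to 3122, the share with a neighbour within 10 kb to 2.79% and raised the share of windows at least 50% masked to 39.4%. In members with a fold over 7, a setting chosen after seeing the data, the masked share was 71.5%. The same strictness, also added later, left 216 peaks first called outside H3K4me1 at W1 and 149 at W2. Under it the difference in motif share from windows outside was −2.26 points for TEAD, −0.930 for NFI, 3.50 for CA runs and 0.813 for A runs. Windows of 500 bp gave −1.21 points for SOX and −4.90 for GATA, and a median GC of 44.0%. The share far from start sites was 96.6% at a limit of 1000 bp and 68.8% at 10000 bp (windows outside 96.4% and 71.4%), and 92.5% in members over 1000 bp from earlier peaks and domains. An overlap of 50% of the shorter interval gave 8.20% in culture domains (windows 2.73%). Without words found elsewhere, a choice made after seeing the data, 12.2% lay in culture domains and 58.6% in genes. Neighbours were found for 0.788% within 1000 bp and 41.0% within 100 kb by construction. Flanks of 50 kb raised the members near listed genes from 29 to 52. No paired analysis was possible because each list pools the replicates of its group, and for the same reason no replicate could be left out. Fragments at the summit limit the calls, since the most common fold stands for 4 of them.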
